A study of Homo sapiens with 20 samples.

Results

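Integrins and their immunoglobulin-type ligands were described in TPC-1, an established line of human papillary thyroid cancer cells, after 48 h with or without polymorphonuclear myeloid-derived suppressor cells (PMN-MDSCs), neutrophil-type cells known for restraining immune responses. Members were the protein-coding genes of the deposited count table named as an integrin alpha chain (ITGA1 to ITGA11, ITGA2B, ITGAD, ITGAE, ITGAL, ITGAM, ITGAV, ITGAX), as an integrin beta chain (ITGB1 to ITGB8), or as ICAM1 to ICAM5, VCAM1 or MADCAM1. This gave 33 of 20148 protein-coding genes, with 18 alpha chains, 8 beta chains and 7 ligands. RNA-seq covered 6 libraries of TPC-1 cells kept with PMN-MDSCs (coculture 1 to 6) and 4 libraries of untreated TPC-1 cells (control 1 to 4). All 10 libraries came from 1 cell line. No label says that libraries of a group were grown as separate cultures. The p-values therefore describe the spread among these libraries alone, and that spread may be technical. Some libraries were closer to each other than to the rest of their group, while the tests took all 10 as separate. How the cells shared a culture, where the PMN-MDSCs came from and whether they were removed before RNA extraction was not given in the sources used here.

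An integrin is a pair of 1 alpha and 1 beta chain that spans the cell membrane and ties the cytoskeleton to the matrix or to another cell. The partner of each chain sets what is bound: most alpha chains of epithelial cells pair with the beta 1 chain and hold collagen, laminin or fibronectin, while the alpha V chain pairs with several beta chains and holds vitronectin and fibronectin. The beta 2 chain, ITGB2, is a leukocyte chain that pairs with ITGAL, ITGAM, ITGAX or ITGAD, and these pairs bind ICAM proteins on other cells, which is how leukocytes grip vessel walls and target cells.

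Library totals ran from 40237801 to 48197608 counts. Values are given as CPM, which divides the reads of a gene by the TMM-adjusted size of its library, and levels of different genes are set side by side only as CPM per kilobase of the deposited transcript length. Of 15629 genes tested across the table with edgeR's quasi-likelihood test, 178 (1.14%) passed an adjusted p of 0.05 with a higher level in coculture and 29 (0.186%) with a lower one. The first principal component held 39.3% of the variance and set coculture 1 and 2 (at -66.1 and -60.6) apart from the other 8 libraries (0.908 to 31.8). Epithelial keratins were abundant, with KRT8 at 240 ± 22.4 CPM in coculture (SD, n = 6) and 240 ± 28.6 in controls (SD, n = 4), and KRT18 at 356 ± 58.6 and 350 ± 43.9. Of 13 epithelial and thyroid markers, 5 had no count in any control library, among them CDH1, NKX2-1, TSHR and SLC5A5. The 13 summed to 1184 to 1292 CPM in coculture and 1046 to 1182 in controls, with no overlap. Of the 7 tested, 0 were called and 2 were higher at an unadjusted p under 0.05 by edgeR.

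Of the 33 members, 24 had enough counts to be tested, and 5 of them rose in coculture: the leukocyte chains ITGB2, ITGAM, ITGAL and ITGAX, and the ligand ICAM1. None fell by edgeR's quasi-likelihood test, none was lower at an unadjusted p under 0.05 (0 members), and DESeq2 and limma-voom also called 0 lower. The other 19 tested members did not pass. The share of all tested genes called higher was 1.14%. In 6 members every coculture library lay above every control library, against 383 of all genes tested (2.45%), and in 0 members every coculture library lay below, against 183 (1.17%). These 6 were the 5 members called and ICAM4. The median log2 fold change of the tested members was 0.26, beside 0.01 over all genes tested. Of the 24, 17 reached the filter level in all 4 controls. The other 7 (ITGAL, ITGAM, ITGAX, ITGAD, ITGB4, ITGB8 and ICAM4) did not, so their entry to the test needed coculture libraries. Coculture was the group with the higher fitted level for these genes, except for ITGB8 (log2 fold change -0.47).

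**Figure D1:**
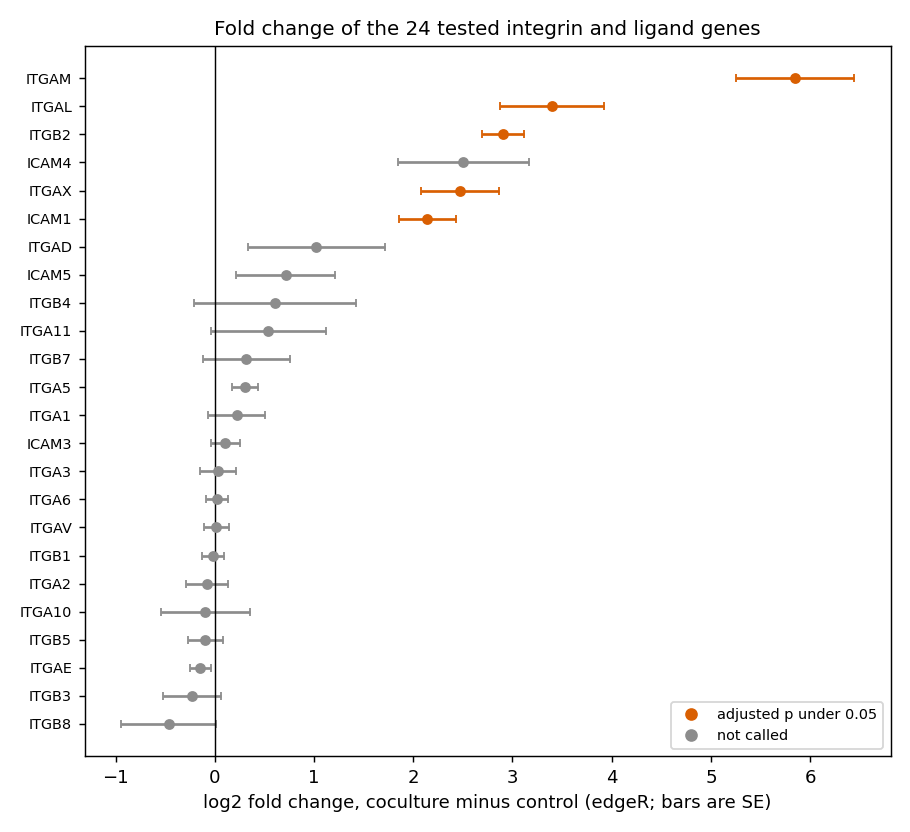
Log2 fold change of coculture over control for the 24 tested members in falling order, with bars of 1 standard error and the 5 called members in orange. These 5 and ICAM4, which did not pass, lie between 2.14 and 5.85, and the matrix-binding chains with high counts lie between -0.23 and 0.30.

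The leukocyte beta chain ITGB2 rose with the smallest standard error of the 5. Its level had a minimum of 7.58, a median of 10.7 and a maximum of 14.4 CPM in coculture, and was 1.45, 1.85, 1.46 and 1.22 CPM in controls 1 to 4. Every coculture library lay above every control, with coculture 2 the lowest and coculture 6 the highest. The log2 fold change was 2.90 ± 0.21 (SE), with an adjusted p of 4.47e-05 by edgeR's quasi-likelihood test. ITGB2 lies at chr21:44885949-44928873 on the minus strand, in the build of the deposited table (GRCh38.p10). The antisense gene ITGB2-AS1 overlaps it over 7839 bases, and the strand setting of the counting was not given in the sources used here. ITGB2-AS1 had 12 to 60 counts in coculture and 16 to 35 in controls, ranges that overlap.

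ITGAM, the alpha M chain (CD11b) that with ITGB2 forms the complement receptor of myeloid cells and is a surface marker used to define PMN-MDSCs, had the highest fold change of the members. It ran from 0.526 through a median of 1.22 to 1.71 CPM in coculture, and stood at 0, 0.0247, 0.0243 and 0.0226 CPM in controls 1 to 4. The groups did not overlap, and control 1 had no count. The sums were 297 counts in coculture and 3 in controls, a ratio of 66.8 per unit of depth with a 95% counting interval of 22.6 to 326. The fitted log2 fold change was 5.85 ± 0.60 (SE), with an adjusted p of 0.000334 by edgeR's quasi-likelihood test, a size that rests on 3 control counts.

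ITGAL, the alpha L chain (CD11a) of the leukocyte receptor LFA-1, whose main ligand is ICAM1, ran from 0.484 through 1.20 to 1.81 CPM in coculture. Its controls stood at 0.128, 0.222, 0.0728 and 0.0226 CPM. The lowest coculture library, coculture 2, was above the highest control, control 2. The sums were 304 and 19 counts, and the log2 fold change was 3.40 ± 0.52 (SE) with an adjusted p of 0.0047 by edgeR's quasi-likelihood test. ITGAX, the alpha X chain (CD11c) of macrophages and dendritic cells, ran from 2.59 through 4.01 to 4.77 CPM in coculture and stood at 0.833, 1.24, 0.194 and 0.497 CPM in controls. Here coculture 4 was the lowest of its group, still above control 2, the highest control. The log2 fold change of ITGAX was 2.47 ± 0.39 (SE), with an adjusted p of 0.00564 by edgeR's quasi-likelihood test, from sums of 986 and 119 counts.

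The remaining leukocyte alpha chains did not pass. ITGAD, the alpha D chain of macrophages, had values of 1.97 and 2.57 CPM in coculture 1 and 2 and 0.214 to 0.708 in coculture 3 to 6, against 0.705, 0.865, 0.121 and 0.429 in controls. Its groups overlapped, with a log2 fold change of 1.02 ± 0.69 (SE) and an adjusted p of 0.677 by edgeR's quasi-likelihood test. ITGAE, the alpha E chain of T cells lodged in epithelium, which pairs with ITGB7, was not scarce in TPC-1 controls, at 21.8, 21.5, 25.9 and 25.4 CPM, with coculture at 18.2 to 23.3. Its log2 fold change was -0.15 ± 0.10 (SE). The gene GSG2 overlaps ITGAE over 2430 bases on the other strand and had 944 to 1373 counts per library. ITGB7 itself stayed near 1 CPM or under in all 10 libraries (0.278 to 1.07 in coculture, 0.340 to 0.897 in controls).

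ITGAM, ITGAX and ITGAD are neighbours on chromosome 16, at chr16:31259967-31332892, chr16:31355134-31382997 and chr16:31393224-31426513, all on the plus strand. The gaps are 22241 bases between ITGAM and ITGAX and 10226 bases between ITGAX and ITGAD. ITGAL lies on the same strand, 736781 bases before ITGAM, at chr16:30472662-30523185. ITGAM and ITGAX rose, while ITGAD, the next gene along, did not pass, and the difference between these genes was not tested. Per kilobase, ITGAX was the highest of the leukocyte alpha chains that rose, at 0.816 CPM per kilobase in coculture, with ITGAM at 0.246 and ITGAL at 0.230. Against ITGB2, at 3.75 ± 0.850 CPM per kilobase, each was low. ITGAM amounted to 4.36 to 9.87% of ITGB2 in coculture and at most 1.16% in controls, ranges that do not overlap, whereas ITGAX (15.0 to 35.4% and 8.45 to 42.2%) and ITGAL (3.65 to 7.57% and 1.06 to 6.86%) overlapped. These are 3 of 12 ratios between members that were chosen after their values were seen and that carry no test.

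**Figure D2:**
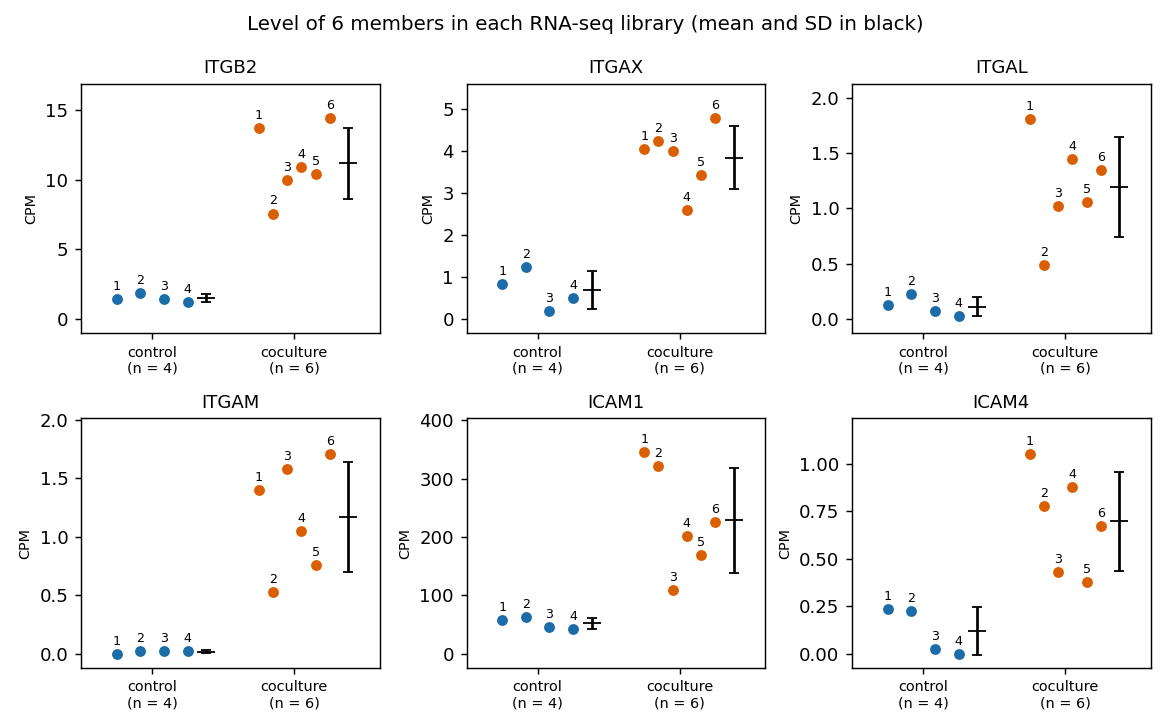
CPM of the 5 called members and ICAM4 in each library, with the group mean and 1 SD. In each of these 6 genes the lowest coculture library lies above the highest control.

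Some markers of leukocytes were also higher in coculture. Of 20 pan-leukocyte markers, 12 of the 15 tested were higher in coculture, beside 1.14% of all genes tested, and 7 had no count in any control. Among the called markers, CD53, CD52, TYROBP and CD48 had no control count. These entered the test only through coculture libraries, where they are high, so the number called was in part set by the filter. The sum of the 20 ran from 166 to 218 CPM in coculture and from 147 to 170 in controls, most of it from LAPTM5, at 141 and 142 CPM. The 17 of them under 1 CPM in controls, a selection made after their values were seen, summed to 10.6 to 32.6 CPM in coculture and 1.20 to 1.56 in controls. PTPRC (CD45), the defining leukocyte gene, had 19, 3, 6, 18, 9 and 15 counts in coculture 1 to 6, and 1 count in all controls together. CD14, a monocyte marker, stood at 2.90 ± 1.22 CPM in coculture and 0.0863 ± 0.0435 in controls. The 19 neutrophil markers summed to 5.97 to 12.2 CPM in coculture and 6.10 to 9.64 in controls, most of it from FPR1, at 7.65 and 7.45 CPM. Of these markers, 2 were tested, and S100A9, a calcium-binding protein abundant in neutrophils and monocytes, rose, with 15 to 78 counts in each coculture library and 1 count in all controls together (0.931 against 0.00534 CPM, adjusted p = 0.000998 by edgeR). Its partner S100A8, too low to test, had 6 to 12 counts in each coculture library and 0 in every control. By contrast, CXCR1, CXCR2, FCGR3B, ELANE, PRTN3 and ARG1 had no count in any of the 10 libraries. Of the 19 markers, 13 had no count in controls and 6 had none in coculture. S100A12, MPO, AZU1, CEACAM8 and MNDA, too low to test, had counts in coculture only. CSF3R had 6, 0, 0, 1, 3 and 1 counts in coculture and none in controls. The 16 monocyte and macrophage markers summed to 104 to 184 CPM in coculture and 80.3 to 102 in controls. In controls 1 of them averaged 1 CPM or more, and that gene made up most of the sum. Of these 16, 5 were tested and 4 rose (CD14, CSF1R, LYZ and MRC1), beside 1.14% of all genes tested. In controls MRC1 had no count and CD14 averaged 0.0863 CPM. Both entered the test only through coculture libraries, where they are high, so the share of all genes is not a like comparison. The 14 T, NK and B cell markers, with 1 tested and 0 called, summed to 7.46 to 16.5 and 7.28 to 13.7 CPM. The 8 platelet markers, with 0 tested, summed to 0.105 to 0.954 and 0.0214 to 0.0989. Coculture 2 was the lowest of its group for ITGB2, ITGAL, ITGAM and the 17-marker sum, and coculture 6 was the highest for ITGB2, ITGAM, ITGAX and that sum. Other libraries differed in order. Coculture 1, the highest for ITGAL, had the second lowest sum (19.1 CPM). Coculture 4, the lowest for ITGAX, had the second highest sum (28.9 CPM). The part of leukocyte RNA in the rise of ITGB2, ITGAL, ITGAM and ITGAX was not tested. In bulk RNA, a change in the number of cells of a type and a change in RNA per cell cannot be told apart.

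**Figure D3:**
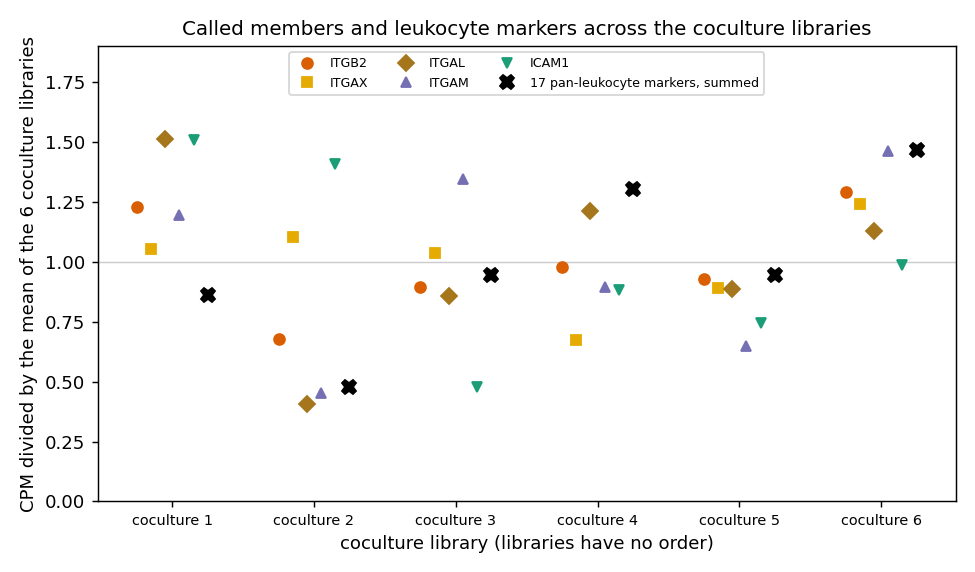
CPM of the 5 called members and of 17 summed pan-leukocyte markers in each coculture library, each divided by its mean over the 6 coculture libraries. ITGB2, ITGAL, ITGAM and the markers are lowest in coculture 2, where ICAM1 and ITGAX are each at their second highest value.

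ICAM1, the membrane ligand of the ITGB2 pairs and a gene that many cell types raise under inflammatory cytokines through NF-kB, rose, and of the 5 members called it had the highest level in controls. It ran from 109 through a median of 214 to 345 CPM in coculture, and stood at 57.0, 62.5, 45.2 and 43.0 CPM in controls 1 to 4. The lowest coculture library (coculture 3) was above the highest control (control 2), and coculture 1 and 2 were the highest. The log2 fold change was 2.14 ± 0.29 (SE) with an adjusted p of 0.00183 by edgeR's quasi-likelihood test. The leukocyte chains that rose did not share a single order across the coculture libraries. Coculture 2, the lowest for ITGB2, ITGAL and ITGAM, had the second highest ICAM1 value, at 322 CPM. It also had the second highest ITGAX value, at 4.23 CPM. Coculture 1, the highest for ICAM1, was also the highest for ITGAL, at 1.81 CPM. Without coculture 1 and 2 the groups still did not overlap, with coculture at 109 to 226 CPM.

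The promoters of ICAM1, its neighbour ICAM4 and ITGAM are shown because these 3 members had no overlap between the groups and an entry in the promoter table. Each is the 250 bases before the annotated start, 5′ to 3′ on the plus strand, from RefSeq on GRCh38.p14, at chr19:10270870-10271119, chr19:10286705-10286954 and chr16:31259725-31259974. Capitals mark matches to NF-kB motifs in ICAM1 and ICAM4 and to the PU.1 motif in ITGAM and ICAM4, where the motifs adjoin.
ICAM1: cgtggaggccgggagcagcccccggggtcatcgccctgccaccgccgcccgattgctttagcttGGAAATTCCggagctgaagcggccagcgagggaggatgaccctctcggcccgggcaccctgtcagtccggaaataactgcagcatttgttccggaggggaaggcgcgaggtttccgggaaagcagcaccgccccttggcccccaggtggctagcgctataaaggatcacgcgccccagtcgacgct
ICAM4: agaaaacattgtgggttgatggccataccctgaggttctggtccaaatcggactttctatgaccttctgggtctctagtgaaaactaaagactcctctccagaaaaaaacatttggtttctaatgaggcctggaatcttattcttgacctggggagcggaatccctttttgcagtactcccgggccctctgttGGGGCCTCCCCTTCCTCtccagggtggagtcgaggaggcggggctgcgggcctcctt
ITGAM: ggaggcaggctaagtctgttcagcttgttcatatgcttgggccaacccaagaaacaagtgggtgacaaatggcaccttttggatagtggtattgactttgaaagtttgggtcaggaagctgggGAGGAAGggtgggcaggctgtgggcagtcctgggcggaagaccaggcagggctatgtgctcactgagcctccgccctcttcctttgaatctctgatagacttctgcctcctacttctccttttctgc
The ICAM1 match is GGAAATTCC, 186 to 178 bases before the start, and fits the palindromic NF-kB motif GGAANTTCC, which on either strand occurs in 227 of 27305 promoters of the same length (0.831%) and in 1 of the 23 members with a promoter entry. The general NF-kB consensus was matched in 3245 promoters (11.9%) and in 10 of the 23 members, among them ICAM4, 57 to 48 bases before the start, but not ICAM1. The PU.1 motif GAGGAAG, for a myeloid transcription factor encoded by SPI1, was matched on either strand in 3017 promoters (11%) and in 6 of the 23 members. These include ITGAM, 127 to 121 bases before the start, and ICAM4, 47 to 41 bases before it, on the opposite strand. A match describes the letters only. The deposited table starts ICAM1 at base 10270841, before the RefSeq window begins, so the start sites used differ.

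The ICAM genes on chromosome 19 stand close together, with ICAM1 at chr19:10270841-10286615, ICAM4 at chr19:10286967-10288584 and ICAM5 at chr19:10289352-10296778, all on the plus strand. ICAM4 begins 351 bases after ICAM1 ends, and ICAM5 767 bases after ICAM4. ICAM3 lies 36997 bases further, at chr19:10333776-10339834, on the minus strand. ICAM4, a red cell surface protein that binds several integrins, ran from 0.379 through 0.727 to 1.05 CPM in coculture, and stood at 0.235, 0.222, 0.0243 and 0 CPM in controls. The groups did not overlap, from sums of 181 and 21 counts. The log2 fold change of 2.51 ± 0.66 (SE) did not pass by edgeR's quasi-likelihood test (adjusted p = 0.119), and passed by DESeq2 (adjusted p = 0.00212). ICAM4 was 0.486 to 0.950% of ICAM1 per kilobase in coculture and 0 to 0.899% in controls.

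ICAM5, known as a brain protein of neuronal dendrites, was at 10.7 and 11.4 CPM in coculture 1 and 2 and at 1.66 to 4.00 in coculture 3 to 6, against 4.17, 2.97, 3.06 and 3.37 in controls. The high values were those of the 2 libraries that stand apart, and the groups overlapped (log2 fold change 0.71 ± 0.50 SE, adjusted p = 0.687 by edgeR's quasi-likelihood test). ICAM3, a ligand found on resting leukocytes, was at 10.1 to 15.8 CPM in coculture and 10.3 to 12.8 in controls, with a log2 fold change of 0.11 ± 0.15 (SE). ICAM1 made up 71.1 ± 4.82% of the summed ligand level per kilobase in controls (SD, n = 4) and 89.4 ± 2.65% in coculture (SD, n = 6), while ICAM3 made up 23.4 ± 4.94% and 7.75 ± 2.71%. ICAM5 was 0.870 to 3.74% of ICAM1 per kilobase in coculture and 5.01 to 8.27% in controls, with no overlap. The summed ligand level was 22.4 ± 2.52 CPM per kilobase in controls and 78.4 ± 30.2 in coculture.

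**Figure D4:**
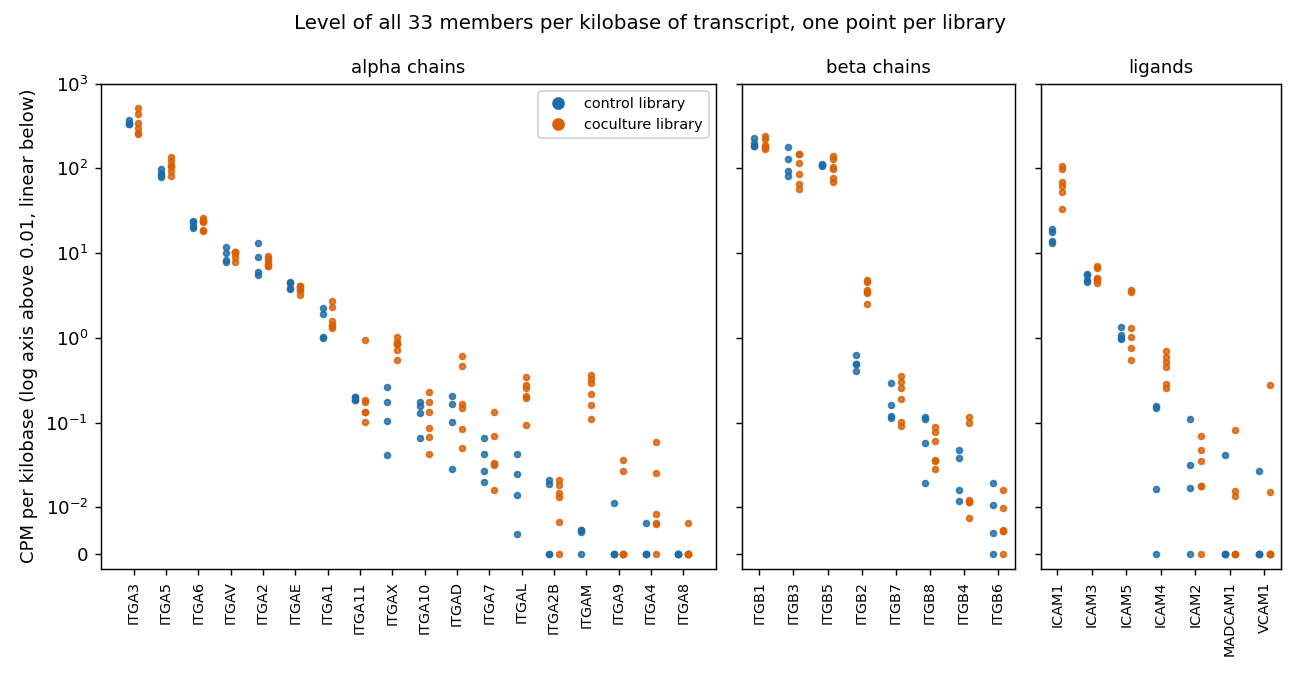
Level of all 33 members in CPM per kilobase, 1 point per library, on an axis that is logarithmic above 0.01 and linear below. ITGA3 (mean 346) and ITGB1 (mean 199) lead the alpha and beta chains of the controls, and ITGB2 has means of 0.502 in controls and 3.75 in coculture.

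The integrins with high levels in TPC-1 cells were matrix receptors, and none of them was called. Per kilobase, the laminin-binding chain ITGA3 led the alpha chains in controls at 346 ± 21.2 CPM per kilobase (SD, n = 4), followed by the fibronectin-binding ITGA5 at 87.7 ± 8.13, the laminin-binding ITGA6 at 22.0 ± 2.02, ITGAV at 9.54 ± 1.78 and the collagen-binding ITGA2 at 8.46 ± 3.58. The values of ITGAV and ITGA2 differ by less than their spread. Among beta chains ITGB1 led at 199 ± 19.7, ahead of ITGB3 at 121 ± 43.5 and ITGB5 at 110 ± 3.44, and the last of these differ by less than the spread of ITGB3. ITGB2 stood at 0.502 ± 0.0883. In coculture the order of these chains was the same except that ITGB3 (103 ± 40.1) and ITGB5 (103 ± 28.3) were level.

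ITGA3 was at 1894, 1747, 1670 and 1666 CPM in controls and ran from 1291 through 1640 to 2569 in coculture, where coculture 1 and 2 were above and coculture 3, 4 and 6 below every control. The wide coculture range held the whole control range, and the log2 fold change was 0.03 ± 0.18 (SE), with an adjusted p of 0.973 by edgeR's quasi-likelihood test. ITGB1 was at 874, 776, 715 and 711 CPM in controls and at 650 to 923 in coculture, with a median of 712. Its log2 fold change was -0.02 ± 0.11 (SE), and the groups overlapped. ITGA6, which with ITGB4 forms the anchor of epithelium to its basement membrane, was at 141, 115, 135 and 123 CPM in controls and 106 to 151 in coculture (0.02 ± 0.11 on the log2 scale). ITGB4 was scarce in both groups, at 0.0477 to 0.716 CPM in coculture and 0.0728 to 0.294 in controls.

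ITGA5, the fibronectin receptor chain that pairs with ITGB1, was at 418, 379, 357 and 338 CPM in controls and ran from 348 through 456 to 579 in coculture. Only coculture 3 and 4 lay within the control range. The log2 fold change of 0.30 ± 0.13 (SE) did not pass by edgeR's quasi-likelihood test (adjusted p = 0.474). Its share of the summed alpha chain level per kilobase was 21.5 ± 1.68% in coculture and 18.2 ± 0.422% in controls, and the ranges, 19.6 to 23.7% and 17.6 to 18.5%, did not overlap. ITGA3 took 68.8 ± 3.28% in coculture and 72.1 ± 1.02% in controls. Per kilobase ITGA5 was 54.8, 57.1, 48.7, 49.9, 59.4 and 60.5% of ITGB1 in coculture 1 to 6 and 43.6, 44.4, 45.4 and 43.3% in controls, again with no overlap. These shares and ratios were chosen after their values were seen, are descriptions with no test, and the level of ITGA5 itself overlapped. The noncoding gene LOC102724050 overlaps ITGA5 on the other strand, with 53 to 165 counts per library.

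**Figure D5:**
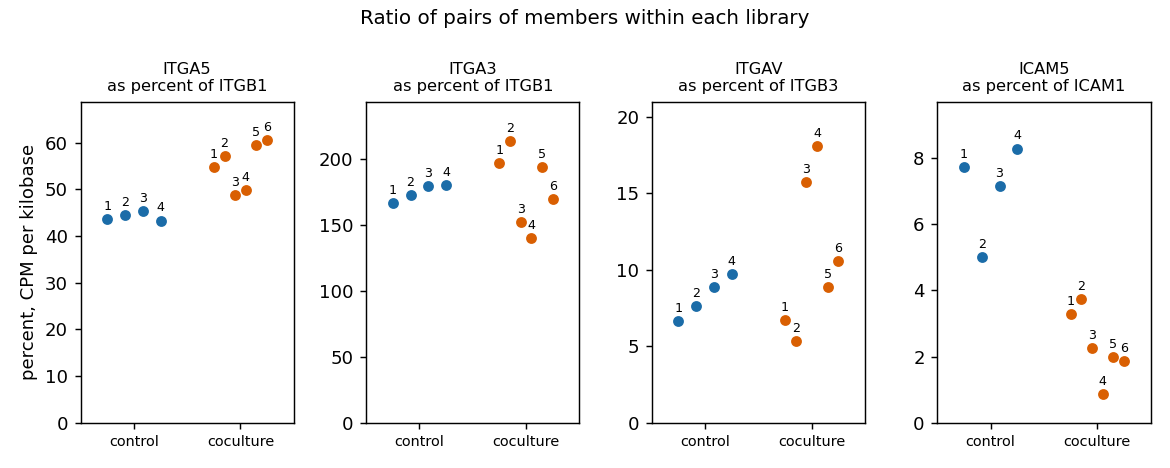
Level of 1 member as a percent of another, per kilobase, in each library, for 4 pairs; numbers beside points are library numbers. ITGA5 against ITGB1 is at 48.7 to 60.5% in coculture and 43.3 to 45.4% in controls, while ITGA3 against ITGB1 (140 to 214% and 167 to 180%) overlaps.

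The vitronectin receptor chains varied widely. ITGB3, the beta 3 chain, was at 874, 637, 460 and 399 CPM in controls and ran from 277 through 495 to 731 in coculture, so that libraries within each group differed more than the group means did. Its log2 fold change was -0.23 ± 0.29 (SE), with an adjusted p of 0.843 by edgeR's quasi-likelihood test. ITGAV was at 83.4, 70.2, 58.9 and 55.9 CPM in controls and 54.9 to 72.6 in coculture, with a log2 fold change of 0.01 ± 0.12 (SE). ITGB5, which pairs with ITGAV, was narrow in controls, at 483, 499, 463 and 481 CPM, and wide in coculture, from 305 through 440 to 621. Coculture 1 and 2 lay above every control and coculture 3 to 6 below, at 305 to 453 CPM. Over all libraries its log2 fold change was -0.10 ± 0.18 (SE), and without coculture 1 and 2 it was -0.36 with an adjusted p of 0.143, both by edgeR's quasi-likelihood test, so neither passed. ITGAV was 5.34 to 18.1% of ITGB3 in coculture and 6.64 to 9.75% in controls. The beta 8 chain ITGB8, which with ITGAV frees TGF-beta from its latent form, was at 0.262 to 0.826 CPM in coculture and 0.181 to 1.07 in controls.

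The collagen-binding chains gave no call in 4 tested. ITGA2, the platelet and epithelial collagen receptor, was at 105, 72.1, 47.1 and 43.5 CPM in controls, with control 1 the highest of all libraries, and at 55.2 to 74.0 in coculture (log2 fold change -0.08 ± 0.21 SE). ITGA1 was at 6.27 to 13.2 CPM in coculture and 4.77 to 10.7 in controls, and the gene PELO, with 3566 to 4554 counts per library, overlaps it over 14316 bases on the same strand. ITGA10, known from cartilage, was at 0.227 to 1.22 and 0.346 to 0.919 CPM. ITGA11, a fibroblast chain, was at 9.06 CPM in coculture 1 and at 0.978 to 1.74 in the other 5 coculture libraries, against 1.74 to 1.93 in controls.

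Of the 9 members with too few counts to test, VCAM1, the ligand of the alpha 4 integrins on activated endothelium, had 39 of its 41 coculture counts in coculture 1, 2 in coculture 6 and none in the other 4, with 4 counts in control 1 and none in the other controls. In coculture 1, 13 fibroblast and endothelial markers summed to 148 CPM, against 3.64 to 10.4 in the other coculture libraries and 3.54 to 7.43 in controls. Their part in the values of VCAM1 and ITGA11 in that library was not tested. ITGA4, the alpha 4 chain of lymphocytes and monocytes, had 8, 3, 2, 18, 0 and 2 counts in coculture and 0, 0, 2 and 0 in controls, a ratio of 11.1 per unit of depth with a 95% counting interval of 2.85 to 95.7. For ITGA9, with 11 and 2 counts, the ratio was 3.71 (0.809 to 34.4), and for MADCAM1, the gut homing ligand, 7 and 3 counts gave 1.57 (0.359 to 9.43). The others had few counts in both groups. ITGA7 had 62 counts in coculture and 30 in controls, ITGA2B 11 and 6, ITGB6 8 and 7, ICAM2 11 and 9, and ITGA8 2 and 0.

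Other genes of integrin adhesion changed in few places. Of 111 such genes, 89 were tested, 4 rose, 2 fell and 83 did not pass, beside 1.14% and 0.186% of all genes, with a median log2 fold change of 0.05. Among 39 activators and adaptors, 34 were tested, 0 rose and TLN2 fell. TLN2, a talin that links integrin tails to actin, was at 64.7 to 93.9 CPM in coculture and at 114, 108, 104 and 102 in controls, with no overlap (log2 fold change -0.48 ± 0.10 SE, adjusted p = 0.0296 by edgeR's quasi-likelihood test). FERMT3, the kindlin of blood cells that activates the ITGB2 pairs, was at 1.16 to 4.85 CPM in coculture and 0.812 to 1.58 in controls and did not pass by edgeR's quasi-likelihood test (adjusted p = 0.0636). It passed by DESeq2 (adjusted p = 0.000666). By edgeR it passed with no filter (0.0196), without coculture 2 (0.00452) and without coculture 1 and 2 (0.00111). FERMT3 did not pass by limma-voom (0.193) or by edgeR with a replicate block (0.217). Leaving out any 1 library other than coculture 2 gave adjusted p of 0.0688 to 0.234 by edgeR. PARVA and BCAR1, adaptors of focal adhesions, were at 95.9 ± 11.8 against 123 ± 13.9 CPM and at 269 ± 26.1 against 340 ± 44.9, and neither passed.

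Among 36 matrix ligands, 28 were tested. The collagen VI chains COL6A1 (605 ± 102 against 248 ± 31.4 CPM) and COL6A2 (354 ± 79.2 against 183 ± 11.5) rose, with log2 fold changes of 1.29 ± 0.14 and 0.95 ± 0.15 (SE) and adjusted p of 0.000576 and 0.00669 by edgeR's quasi-likelihood test. THBS1, a matrix protein that binds integrins and CD47, fell from 283 ± 88.5 to 89.8 ± 44.1 CPM (-1.66 ± 0.35, adjusted p = 0.0368 by edgeR). Among 15 membrane partners of integrins, all tested, the tetraspanin CD82 rose from 145 ± 6.36 to 244 ± 58.8 CPM (0.75 ± 0.16, adjusted p = 0.0460 by edgeR). CD47, at 58.4 ± 3.63 against 51.5 ± 1.75 CPM, did not overlap between groups and did not pass. SDC4 (306 ± 65.1 against 244 ± 9.11) and TGM2 (1934 ± 484 against 2557 ± 183) did not pass with all libraries. Without coculture 1 and 2, TGM2 was called lower by edgeR. The calls of COL6A1 and COL6A2 held without any 1 library, and those of TLN2, THBS1 and CD82 did not. Leaving out any 1 control ended the calls of TLN2 and CD82, with adjusted p up to 0.108 and 0.158 by edgeR, both without control 1, and THBS1 lost its call without control 2, 3 or 4 (up to 0.151, without control 3). Among coculture libraries, leaving out 4 or 6 ended all 3 of these calls (adjusted p 0.0542 to 0.1003 by edgeR). So did leaving out coculture 2 for TLN2 (0.0534) and CD82 (0.0788), coculture 1 for THBS1 (0.0607), coculture 3 for TLN2 (0.0528) and coculture 5 for CD82 (0.0640). Without coculture 1 and 2, THBS1 had an adjusted p of 0.110 by edgeR.

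Of 21 other adhesion molecules for leukocytes, 12 were tested and 0 passed by edgeR's quasi-likelihood test, DESeq2 or limma-voom, and 1 was at an unadjusted p under 0.05. That gene was CD58, the ligand of CD2 on T cells, at 13.6 ± 0.794 CPM in coculture and 16.3 ± 2.23 in controls. ALCAM (223 ± 51.8 against 272 ± 22.0), NECTIN2 (228 ± 38.6 against 192 ± 6.27) and CD44 (1165 ± 75.1 against 1044 ± 51.0), surface proteins that bind leukocyte receptors or hyaluronan, also did not pass. The difference between ICAM1 and these genes was not tested.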

How the data were processed

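RNA-seq counts were analysed for 6 coculture and 4 control libraries, grouped by the treatment labels. The authors deposited raw counts per gene symbol, with coordinates and transcript lengths. HISAT2 2.0.4, BWA and GRCh38.p10 are named, per the submitters' processing notes, while the counter, annotation and strand setting were not given in the sources used here. Of 54261 rows, 24191 had no count. The number of unused value columns was 0, and the miRNA table was not used. The smallest chi-square per degree of freedom between libraries of a group was 6.86, for control 3 and 4, so all were kept. Other control pairs were at 20.1 to 61.5. Coculture 1 and 2, 3 and 4, and 5 and 6 were at 12.3, 13.5 and 12.6, and other coculture pairs at 18.9 to 142. Whether libraries of a close pair came from separate cultures was not tested. If they did not, the standard errors and p-values, which take 6 and 4 libraries as separate, are too small.

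In R 4.3.3, edgeR 4.0.16 was run with TMM, filterByExpr by group, robust glmQLFit and glmQLFTest, with Benjamini-Hochberg adjustment over 15629 genes and a threshold of 0.05. The standard error (SE) is the log2 fold change divided by the root of its F statistic. Alternatives were RLE normalization, no filter, DESeq2 1.42.0, limma-voom (limma 3.58.1), a replicate block, leaving out each library, and leaving out coculture 1 and 2. In each library 3 counts, the floor, equalled 0.0632 to 0.0758 CPM. Intervals (95%, exact) and floors cover counting error only. Members, lists and tests were chosen with earlier results of these data known. Members are described in full where called, where the groups do not overlap, or where they are among the 5 highest alpha chains, 3 highest beta chains or the highest ligand per kilobase in controls. Of each list of other genes, the 4 with the smallest adjusted p are named, except 1 that is not reported here. Of 247 list entries matched, 3 were found by an older symbol. Promoters are from RefSeq (GRCh38.p14), with 23 of 33 members matched.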

Additional observations from a re-analysis of the deposited data

Results flagged for a closer look

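The CPM of each member within each group was examined for a library far from the rest, in 48 groups, and 2 were found. Chance gives about 1 in 20 groups. ITGA11 in coculture 1, at 9.06 CPM, lay far above the other coculture libraries, the next of which was at 1.74 CPM. In the same library the fibroblast and endothelial markers summed to 148 CPM. ITGAM in control 1 was at 0 CPM, and the other controls, at 0.0226 to 0.0247 CPM, each had 1 count, so that this gap is a single read.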

How the results depend on the processing

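Of the members, 5 were called higher and 0 lower under RLE normalization, no filter, limma-voom, without coculture 1 and 2, and without any 1 library (5 to 5 higher, 0 to 0 lower). DESeq2 called 6 higher, adding ICAM4. The values did not settle whether the numbers shared by libraries 1 to 4 pair them. Correlations of deviations were 0.35, -0.083, 0.20 and 0.14. Of 8 libraries 4, those numbered 1 and 3, correlated best with their own number. With the replicate block, 3 members were higher by edgeR (ITGAM, ITGB2, ICAM1), with adjusted p of 0.116 for ITGAL and 0.0599 for ITGAX. With it 2 pathway genes were higher, COL6A1 among them (adjusted p = 0.0133 by edgeR) but not COL6A2 (0.0662), and 0 were lower. ITGB1 was then at 0.032 on the log2 scale. Over all alternatives the log2 fold change was 1.75 to 2.29 for ICAM1, 2.80 to 3.02 for ITGB2, 5.36 to 6.06 for ITGAM, 3.06 to 3.94 for ITGAL and 2.17 to 2.90 for ITGAX, and ICAM4 had adjusted p from 0.00212 to 0.359.

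Of pathway genes, 4 were higher and 2 lower, with 2 to 4 and 0 to 2 when 1 library was left out. COL6A1 and COL6A2 were called without any 1 library. Without the filter 1 was lower. Uncalled members near 0 changed sign: ITGAV to -0.000196 without the filter, ITGA3 to -0.016 by limma-voom, and ITGA3 to -0.25 and ITGA6 to -0.075 without coculture 1 and 2. The cause was not tested. Leaving out 1 library gave -0.24 to 0.22 for ITGA2, -0.10 to 0.11 for ITGA3, -0.030 to 0.080 for ITGA6, -0.066 to 0.13 for ITGAV, -0.084 to 0.043 for ITGB1 and -0.38 to 0.017 for ITGB3. Over all genes, the main counts of 178 higher and 29 lower became 393 and 95 by DESeq2, 210 and 112 without coculture 1 and 2, 100 and 10 with the replicate block, and 112 to 204 and 4 to 36 without 1 library. Depth limits the 9 untested members and the ITGAM ratio, which rests on 3 control counts.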
